A study of Drosophila melanogaster with 8 samples.

Results

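The transcripts of 10 genes were followed in Drosophila melanogaster heads in which the gene row was knocked down: the Turandot genes TotA, TotB, TotC, TotM and TotX, and the JAK-STAT genes upd3, dome, hop, Stat92E and Socs36E. They were taken by symbol from the 13781 rows of the count table. Of the 10, 8 passed the filter on low counts, and TotB and upd3 did not. TotA, TotC and TotM were higher than in control heads in both knockdown lines. In 1 line, the calls of TotC and TotM were lost under some alternative settings. TotX was higher in 1 line, and Stat92E was slightly higher in the other, a call also lost under some settings. The receptor and kinase genes dome and hop and the feedback gene Socs36E were called in neither.

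Turandot genes encode small secreted proteins that build up in fly hemolymph after heat, infection, wounding or drying. The fat body, the fly counterpart of liver and adipose tissue, is their main known source. JAK-STAT is one of the pathways known to induce them. In it, cytokines of the Unpaired family (upd3 among them) bind the receptor Domeless, the kinase Hopscotch phosphorylates the transcription factor Stat92E, and Stat92E activates target genes. Socs36E is such a target, and its product dampens the signal. Stress-activated MAP kinases and the Imd pathway of immunity also take part in Turandot induction.

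The study asked which genes depend on ROW, a chromatin protein, together with the insulator protein BEAF-32. RNA was sequenced from the 3′ ends of transcripts in heads of 3 groups: Actin-gal4/+; UAS-rowRNAi2/+ (row_RNAi2, 3 libraries), Actin-gal4/+; UAS-rowRNAi1/+ (row_RNAi1, 2 libraries) and Actin-gal4/+ (control, 3 libraries). Flies of all groups were kept at 25 °C with 12 h of light a day, and heads were taken after 3 days of recovery from CO2. All groups carry Actin-gal4, which drives UAS transgenes in most tissues, and the controls carry no UAS transgene by their label. A change can therefore arise in any tissue, and the knockdown cannot be told apart from the presence of the transgene or from the background of a line. In bulk heads, fewer cells of a type and less RNA per cell cannot be told apart. The sources used here do not state sex or age, or whether libraries of a group are separate collections, so p-values measure the spread between samples that may be technical.

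Libraries held 6230666 to 11212213 counts in row_RNAi2, 17952015 and 18046699 in row_RNAi1, and 7015874 to 9437287 in control. Levels are given as CPM, counts scaled to a common library total with TMM factors, and an adjusted p is that of edgeR's quasi-likelihood test with Benjamini-Hochberg adjustment over 9442 genes. A gene was called at an adjusted p under 0.05. The target row had 8.04, 5.97 and 8.28 CPM in row_RNAi2, 5.93 and 4.22 CPM in row_RNAi1 libraries, against 14.3, 14.9 and 12.1 CPM in control. All 5 knockdown libraries lay below the 3 controls, a pattern that 8.29% of all genes showed. The log2 fold change was -0.90 in row_RNAi2 (SE 0.17, adjusted p = 0.00175 by edgeR) and -1.44 in row_RNAi1 (SE 0.19, adjusted p = 1.81e-05 by edgeR). The difference between the lines, 0.54 (SE 0.20), was not called (edgeR adjusted p = 0.104).

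Each line was set against the same 3 control libraries. In row_RNAi2, 4 of the 8 tested genes were called higher (TotA, TotC, TotM and Stat92E) and 0 lower, where 10.8% of all genes tested were called and 5.49% were called higher. In row_RNAi1, 4 of the 8 were called higher (TotA, TotC, TotM and TotX) and 0 lower, where 21.2% of all genes were called and 11.2% were called higher. No lower call was made by edgeR at an unadjusted p under 0.05, by DESeq2 or by limma voom in either line, with a count of 0 in each. The median log2 fold change of the 8 genes was 0.24 in row_RNAi2 and 0.54 in row_RNAi1, against -0.01 over all genes in each line. The mean of both lines against control gave 3 calls, all higher (TotA, TotC and TotM), where 17.8% of all genes were called and 9.24% were called higher. All 5 knockdown libraries lay above all 3 controls for the same 3 genes, a pattern that 8.90% of all genes showed.

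**Figure D1:**
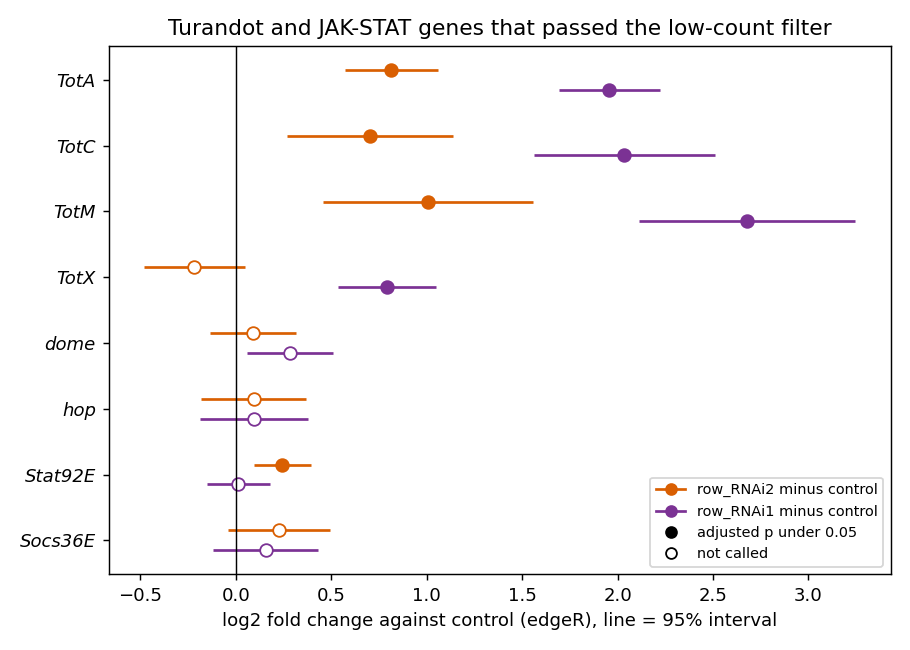
Log2 fold change against control (x axis) of the 8 genes that passed the low-count filter, in row_RNAi2 and row_RNAi1, with 95% intervals as lines. TotA, TotC and TotM lie right of 0 in both lines and farther right in row_RNAi1, and the intervals of hop and Socs36E cross 0 in both.

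TotA, the founding member of the family, had 313, 345 and 264 CPM in row_RNAi2, 578 and 779.7 CPM in row_RNAi1 libraries, against 175, 195 and 155 CPM in control. The 3 groups did not overlap, and row_RNAi1 stood highest. Here and below, the share of all genes in which all 3 groups, or 1 line alone, stand apart was not counted. The means (± SD) were 307 ± 40.6 CPM in the 3 row_RNAi2 libraries, 679 ± 143 CPM in the 2 row_RNAi1 libraries and 175 ± 19.8 CPM in the 3 controls. TotA rose 1.76-fold in row_RNAi2 (log2 0.81, SE 0.12, adjusted p = 9.29e-05 by edgeR). In row_RNAi1 it rose 3.88-fold (log2 1.96, SE 0.13, adjusted p = 3.15e-09 by edgeR). Both calls held under all 17 alternatives run.

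TotC, the gene next to TotA, had 214, 188 and 149 CPM in row_RNAi2, 281 and 641 CPM in row_RNAi1 libraries, against 100.2, 127 and 109.8 CPM in control. The 3 groups did not overlap, but the row_RNAi1 libraries lay far apart. TotC rose 4.10-fold in row_RNAi1 (log2 2.04, SE 0.22, adjusted p = 2.38e-06 by edgeR), and without row_RNAi1 replicate 2 the log2 value was 1.32. In row_RNAi2 it rose 1.63-fold (log2 0.70, SE 0.21, adjusted p = 0.0358 by edgeR). That call was lost with DESeq2 (adjusted p = 0.199) and, in edgeR, without control replicate 1 (adjusted p = 0.135) or 3 (0.0801), or without row_RNAi2 replicate 1 (0.144) or 2 (0.121).

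TotM, on another chromosome, had 73.8, 45.9 and 35.1 CPM in row_RNAi2, 106 and 216 CPM in row_RNAi1 libraries, against 26.9, 20.2 and 28.5 CPM in control. Again the 3 groups did not overlap. TotM rose 6.40-fold in row_RNAi1, the largest fold of the 8 tested genes there (log2 2.68, SE 0.27, adjusted p = 7.19e-07 by edgeR), and without row_RNAi1 replicate 2 the log2 value was 2.07. In row_RNAi2 it rose 2.01-fold (log2 1.01, SE 0.26, adjusted p = 0.0162 by edgeR). The row_RNAi2 call was lost with DESeq2 (adjusted p = 0.0897) and, in edgeR, without control replicate 2 (adjusted p = 0.0769) or row_RNAi2 replicate 1 (0.0969).

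TotX had 17.2, 20.5 and 18.9 CPM in row_RNAi2, 41.7 and 35.0 CPM in row_RNAi1 libraries, against 26.9, 20.0 and 19.9 CPM in control. Both row_RNAi1 libraries lay above all others, while row_RNAi2 overlapped control. TotX rose 1.73-fold in row_RNAi1 (log2 0.79, SE 0.12, adjusted p = 9.05e-05 by edgeR). In row_RNAi2 its log2 fold change was -0.22 (95% interval -0.48 to 0.05, edgeR adjusted p = 0.354). Over the mean of both lines it was 0.29 (edgeR adjusted p = 0.0760), a value that was called without control replicate 1 (log2 0.44, adjusted p = 0.00882), without row_RNAi1 replicate 2 (log2 0.35, adjusted p = 0.0471) and without the low-count filter (adjusted p = 0.0143).

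**Figure D2:**
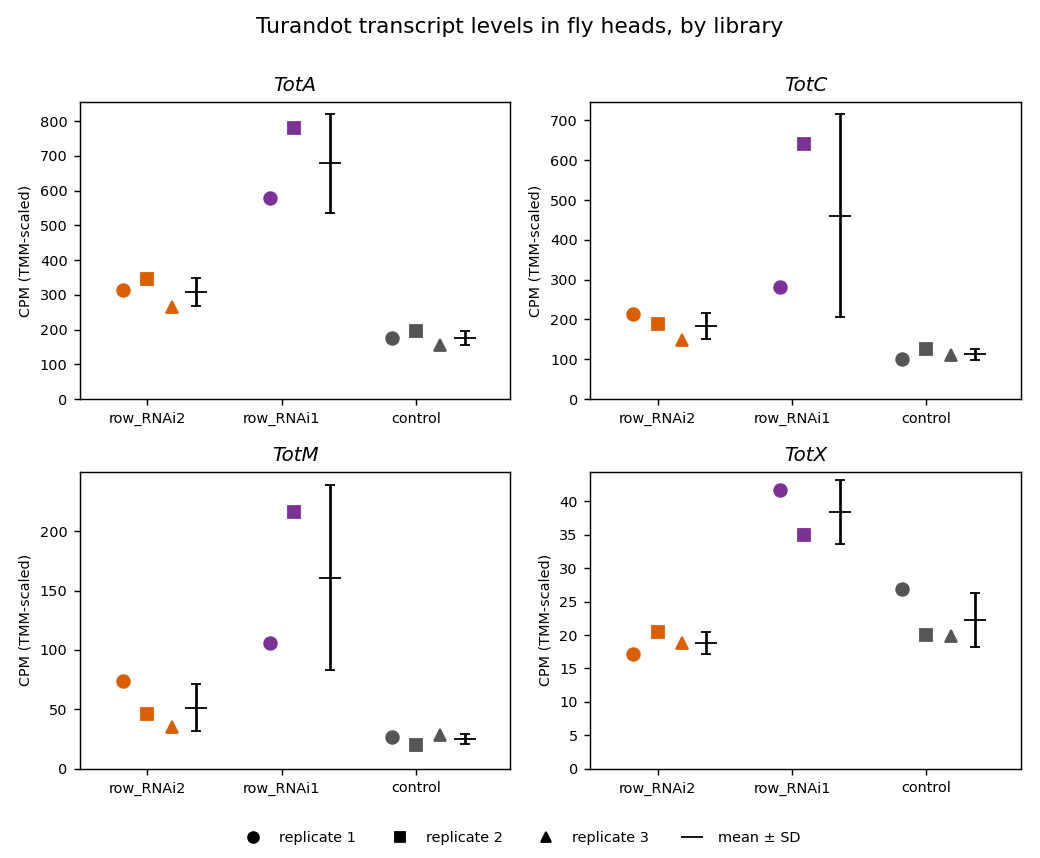
CPM (y axis, from 0, its own scale for each gene) of the Turandot genes in every library, by group in the order row_RNAi2, row_RNAi1, control. TotA, TotC and TotM are lowest in control and highest in row_RNAi1, and TotX is high in row_RNAi1 only.

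TotB, adjacent to TotC, was barely detected, with 6, 6 and 1 counts in row_RNAi2, 2 and 14 counts in row_RNAi1, and 1, 0 and 6 counts in control. The groups overlapped, and no difference was detectable at this depth. In an edgeR fit without the low-count filter, its adjusted p against control was 0.732 in row_RNAi2 and 0.685 in row_RNAi1. TotF had 1 count in all 8 libraries together, and TotE and TotZ were not analysed here.

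The lines differed from each other in all 4 Turandot genes tested. Of the 8 genes, 4 were called lower in row_RNAi2 than in row_RNAi1 and 0 higher, where 11.3% of all genes were called and 6.33% were called lower. Stat92E was higher at an unadjusted p under 0.05 in edgeR, and was called higher by DESeq2 and limma voom. The log2 difference of row_RNAi2 minus row_RNAi1 was -1.14 for TotA (SE 0.12, adjusted p = 6.61e-06), -1.33 for TotC (SE 0.22, adjusted p = 4.98e-04), -1.67 for TotM (SE 0.25, adjusted p = 2.23e-04) and -1.01 for TotX (SE 0.12, adjusted p = 2.06e-05), all by edgeR. Without row_RNAi1 replicate 2 it was -0.62 for TotC and -1.07 for TotM, both still called.

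The row_RNAi1 libraries lay far apart in TotC and TotM. Replicate 2 over replicate 1 was 2.28 for TotC, 2.05 for TotM and 1.35 for TotA in CPM, but 0.838 for TotX. The gap of TotC was larger than that of 99.8% of the 7438 genes with at least 5 CPM, as was that of TotM, and the gap was larger than that of 97.8% for TotA and of 87.8% for TotX. The fitted biological coefficient of variation was 18.4% for TotC, 20.6% for TotM, 11.7% for TotA and 8.64% for TotX. Together the Turandot genes took 0.0605%, 0.0591% and 0.0492% of counts in row_RNAi2, 0.0926% and 0.160% in row_RNAi1, and 0.0357%, 0.0371% and 0.0313% in control.

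Within a library, TotX stood lower relative to TotA in the knockdown lines. This ratio was chosen after its values were seen, so its p-value is no support. An exact permutation test over 56 arrangements of the libraries gave p = 0.0179, the smallest it could give. After Benjamini-Hochberg adjustment over 6 ratios, the permutation p was 0.0714. The ratio of TotX to TotA counts was 0.0551, 0.0593 and 0.0714 in row_RNAi2, 0.0722 and 0.0448 in row_RNAi1, and 0.154, 0.103 and 0.128 in control. All 5 knockdown values lay below the 3 control values. The same held for TotX relative to TotC and to TotM. The ratio to TotC was 0.0546 to 0.148 in the knockdown libraries and 0.158 to 0.269 in control. The ratio to TotM was 0.162 to 0.538 in the knockdown libraries and 0.698 to 1 in control. The ratio of TotC to TotA counts ran from 0.487 to 0.822 in the knockdown libraries and from 0.573 to 0.709 in control, so that the groups overlapped. The ratio of TotM to TotA ran from 0.133 to 0.277 in the knockdown libraries and from 0.104 to 0.184 in control, and also overlapped.

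**Figure D3:**
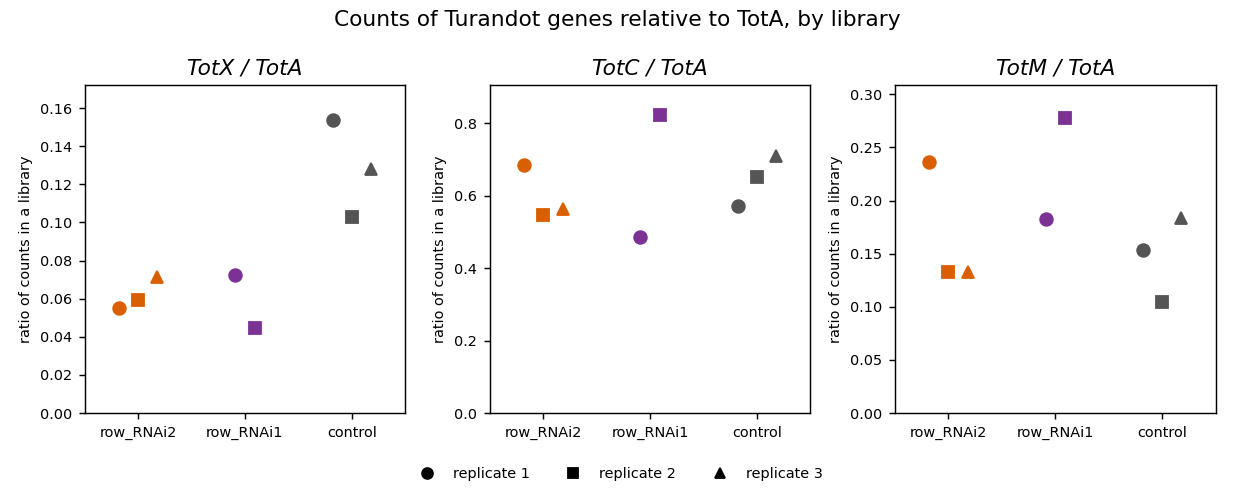
Ratio of TotC, TotM and TotX counts to TotA counts (y axis, from 0) in each library, by group in the order row_RNAi2, row_RNAi1, control. The TotX to TotA ratio lies at 0.0448 to 0.0722 in knockdown libraries and at 0.103 to 0.154 in control.

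In the Ensembl release 115 annotation of BDGP6, TotA, TotC and TotB are neighbours on the plus strand of chromosome arm 3R, each with 2 exons. Their longest proteins have 129, 129 and 138 codons in that order. TotX lies on the minus strand of 3R, past the gene Ktl, has 1 exon and encodes 142 codons. TotM lies on 2L and encodes 131 codons. TotX overlaps CG5621 (now Grik, a glutamate receptor gene) on the opposite strand, and reads of the pair may not be separated. CG5621 had 472 counts in all and a log2 fold change of 0.31 in row_RNAi2 (edgeR adjusted p = 0.561) and 0.52 in row_RNAi1 (edgeR adjusted p = 0.170).

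Of 30 neighbours of the 10 genes, 23 were tested, and 1 was called higher and 2 lower in row_RNAi2, where 10.8% of all genes were called. In row_RNAi1, 3 were called higher and 6 lower, where 21.2% of all genes were called. KaiR1D (CG3822), beside TotA, had log2 fold changes of -0.11 in row_RNAi2 and -0.12 in row_RNAi1, with edgeR adjusted p values of 0.777 and 0.689. Ktl, between TotB and TotX, had -0.04 in row_RNAi2 (edgeR adjusted p = 0.872) and fell in row_RNAi1 (log2 -0.35, edgeR adjusted p = 0.0145). The Ktl call was lost in edgeR when row_RNAi1 replicate 1 (adjusted p = 0.0973) or 2 (0.0707) or control replicate 2 (0.0724) was left out. MtnD, a metallothionein gene beside Stat92E, had 0.08 in row_RNAi2 (edgeR adjusted p = 0.851) and rose in row_RNAi1 (log2 1.15, edgeR adjusted p = 2.51e-05). CG14022, beside TotM, had -0.39 in row_RNAi2 (edgeR adjusted p = 0.159) and fell in row_RNAi1 (log2 -0.95, edgeR adjusted p = 4.91e-04). CG17681, beside Socs36E, had 5, 2 and 5 counts in row_RNAi2, 0 and 2 counts in row_RNAi1, and 11, 9 and 21 counts in control. It was called lower in row_RNAi2 (edgeR adjusted p = 0.0460, lost under 8 of 17 alternatives) and in row_RNAi1 (edgeR adjusted p = 4.46e-04). The row_RNAi2 call of CG17681 was lost in edgeR when control replicate 1 (adjusted p = 0.0865) or 3 (0.241) or row_RNAi2 replicate 2 (0.217) or 3 (0.112) was left out. The other called neighbours had log2 fold changes of 0.28 (fusl) and -0.31 (CG12512) in row_RNAi2, and of 0.64 (Zw), 0.53 (MtnE), -0.47 (CG33639), -0.25 (dlg1) and -0.38 (CG5758) in row_RNAi1. Of these, Zw and CG5758 kept their call under all 17 alternatives, and leaving out 1 library ended the call of each of the others in at least 1 case.

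Of the pathway itself, the ligand gene upd3 was near the limit of detection. It had 1, 4 and 0 counts in row_RNAi2, 1 and 6 counts in row_RNAi1, and 0, 2 and 0 counts in control. The groups overlapped, and an edgeR fit without the low-count filter gave adjusted p values of 0.749 in row_RNAi2 and 0.685 in row_RNAi1. The related ligand genes upd1 and upd2 had 2 and 3 counts over all libraries.

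The receptor gene dome had 17.7, 18.0 and 19.1 CPM in row_RNAi2, 22.1 and 19.9 CPM in row_RNAi1 libraries, against 15.2, 18.3 and 18.0 CPM in control. The row_RNAi1 libraries lay above control, and row_RNAi2 overlapped it. Its log2 fold change was 0.09 in row_RNAi2 (95% interval -0.13 to 0.31, edgeR adjusted p = 0.714) and 0.28 in row_RNAi1 (95% interval 0.06 to 0.51, edgeR adjusted p = 0.0740). With counts thinned to the smallest library, the row_RNAi1 value was 0.41 and was called (edgeR adjusted p = 0.0336).

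The kinase gene hop had 12.3, 11.5 and 14.2 CPM in row_RNAi2, 12.2 and 13.2 CPM in row_RNAi1 libraries, against 11.4, 13.0 and 11.2 CPM in control, and all groups overlapped. The log2 fold change was 0.09 in row_RNAi2 (95% interval -0.18 to 0.37, edgeR adjusted p = 0.767) and 0.09 in row_RNAi1 (95% interval -0.19 to 0.38, edgeR adjusted p = 0.691). Its sign turned under some scalings and without some libraries.

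The transcription factor gene Stat92E had 115, 109.8 and 106 CPM in row_RNAi2, 95.5 and 92.2 CPM in row_RNAi1 libraries, against 90.4, 96.2 and 92.3 CPM in control. The row_RNAi2 libraries lay above all others, and row_RNAi1 overlapped control. Stat92E rose 1.18-fold in row_RNAi2 (log2 0.24, SE 0.07, adjusted p = 0.0344 by edgeR), but this call was lost under 8 of 17 alternatives. Among them were scaling by total counts (edgeR adjusted p = 0.122) and leaving out control replicate 1 (0.0886) or 2 (0.0552), row_RNAi1 replicate 1 (0.0673) or 2 (0.0647), or row_RNAi2 replicate 1 (0.0857) or 2 (0.0950). In row_RNAi1 the log2 fold change was 0.01 (95% interval -0.15 to 0.18, edgeR adjusted p = 0.935). The log2 difference of row_RNAi2 minus row_RNAi1, 0.23 (SE 0.08), was not called (edgeR adjusted p = 0.0697), but was called under 6 of 17 alternatives, among them DESeq2 (adjusted p = 0.0459), limma voom (0.0343) and edgeR without control replicate 3 (0.0379).

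The feedback gene Socs36E had 14.6, 15.2 and 18.5 CPM in row_RNAi2, 16.6 and 14.4 CPM in row_RNAi1 libraries, against 14.2, 14.9 and 12.6 CPM in control. Both lines overlapped control. Its log2 fold change was 0.23 in row_RNAi2 (95% interval -0.04 to 0.49, edgeR adjusted p = 0.336) and 0.16 in row_RNAi1 (95% interval -0.12 to 0.43, edgeR adjusted p = 0.465).

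**Figure D4:**
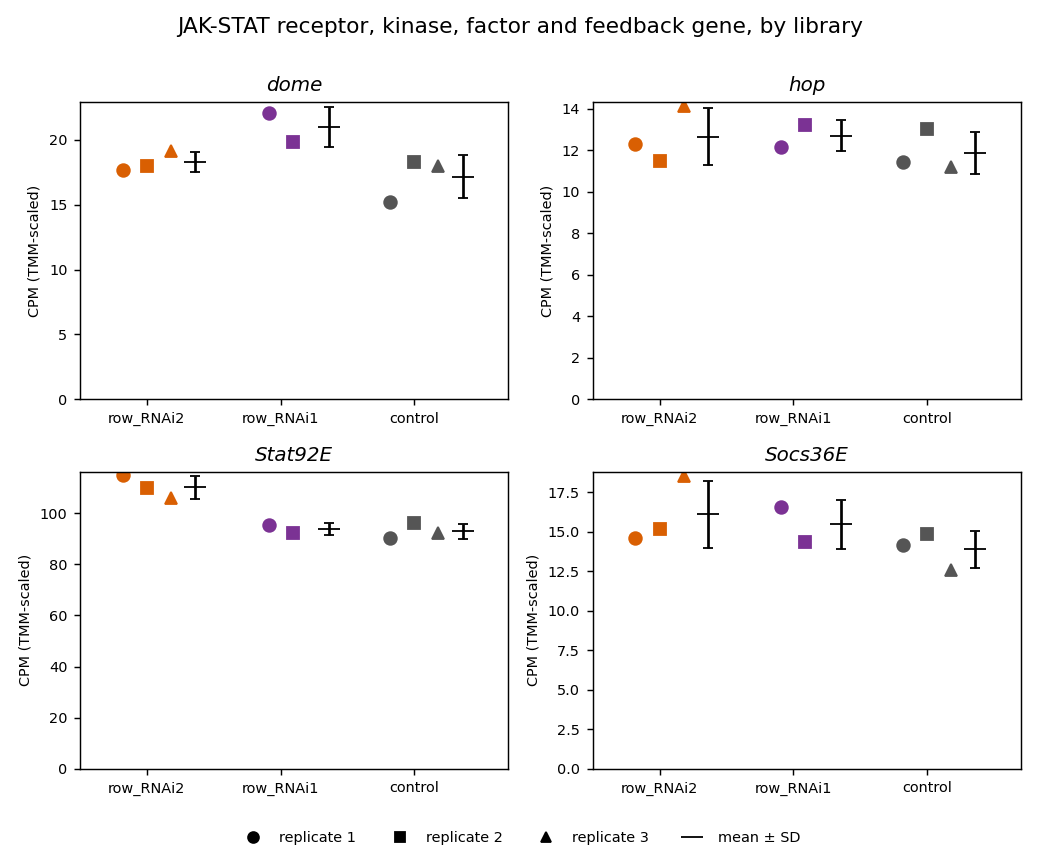
CPM (y axis, from 0, its own scale for each gene) of the JAK-STAT genes in every library, by group in the order row_RNAi2, row_RNAi1, control. The 3 Stat92E libraries of row_RNAi2 lie between 106 and 115 CPM, above all others, and the hop and Socs36E libraries of the groups overlap.

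Other genes of the pathway and of neighbouring stress and immune pathways were counted from lists. Of 13 tested JAK-STAT regulators, none was called by edgeR in either line. Over all genes, 10.8% were called in row_RNAi2 and 21.2% in row_RNAi1. Among the regulators, 1 was higher and 2 lower in row_RNAi2 at an unadjusted p under 0.05 in edgeR. In row_RNAi1, 1 was higher and 0 lower at that p, and DESeq2 and limma voom called 0 in either line. Ptp61F, a phosphatase that restrains the pathway, was called only over the mean of both lines (log2 0.31, SE 0.10, adjusted p = 0.0484 by edgeR), a call lost under 13 of 17 alternatives, among them leaving out any library but control replicate 2 and row_RNAi2 replicate 3 (adjusted p = 0.0611 to 0.251). The log2 fold change of Ptp61F was 0.33 in row_RNAi2 and 0.29 in row_RNAi1.

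Of 7 genes reported elsewhere to respond to JAK-STAT, 1 was called higher in row_RNAi2 and 2 in row_RNAi1, where 5.49% and 11.2% of all genes were called higher. Listericin, an antibacterial protein gene, averaged (± SD) 345 ± 14.3 CPM over 3 row_RNAi2 libraries, 439 ± 13.1 CPM over 2 row_RNAi1 libraries and 217 ± 24.9 CPM over 3 controls. It rose in row_RNAi2 (log2 0.67, SE 0.08, adjusted p = 1.81e-05 by edgeR) and in row_RNAi1 (log2 1.02, SE 0.09, adjusted p = 1.55e-07 by edgeR). Tep2, a thioester protein gene of immunity, averaged 148 ± 0.665 CPM in row_RNAi2, 274 ± 16.0 CPM in row_RNAi1 and 132 ± 5.12 CPM in control. It rose in row_RNAi1 (log2 1.05, SE 0.08, adjusted p = 1.17e-08 by edgeR), and in row_RNAi2 its log2 value was 0.16 (edgeR adjusted p = 0.174).

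Of 7 stress MAP kinase genes, edgeR called 0 in row_RNAi2, where 10.8% of all genes were called. There, 2 of the 7 were higher at an unadjusted p under 0.05 in edgeR, and DESeq2 and limma voom called 0. In row_RNAi1, 2 were called higher, where 11.2% of all genes were. Gadd45, a stress-induced gene upstream of these kinases, averaged 4.47 ± 1.56 CPM in row_RNAi2, 11.5 ± 1.68 CPM in row_RNAi1 and 2.96 ± 0.365 CPM in control. It rose in row_RNAi1 (log2 1.95, SE 0.23, adjusted p = 6.82e-06 by edgeR), and in row_RNAi2 its log2 value was 0.64 (edgeR adjusted p = 0.157). Mekk1, a kinase gene linked to Turandot induction, rose in row_RNAi1 (log2 0.31, edgeR adjusted p = 0.0255), a call lost under 8 of 17 alternatives. It was lost in edgeR without control replicate 2 (adjusted p = 0.0805) or 3 (0.103) and without row_RNAi1 replicate 1 (0.0649) or 2 (0.188).

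Of 10 JNK pathway genes, 1 was called in each line, where 10.8% of all genes were called in row_RNAi2 and 21.2% in row_RNAi1. This was egr, the tumour necrosis factor ligand gene, with a log2 fold change of -0.41 in row_RNAi2 (edgeR adjusted p = 0.0159) and -0.31 in row_RNAi1 (edgeR adjusted p = 0.0492, lost under 11 of 17 alternatives). The row_RNAi2 call was lost in edgeR without control replicate 1 (adjusted p = 0.0882) or 3 (0.0670) or row_RNAi2 replicate 2 (0.0566), and the row_RNAi1 call without control replicate 1 (0.159) or 3 (0.120), row_RNAi1 replicate 1 (0.141) or 2 (0.233), or row_RNAi2 replicate 2 (0.0659). Of 8 Imd pathway genes, edgeR called 0 in row_RNAi2, where 10.8% of all genes were called. There, 2 of the 8 were higher and 1 lower at an unadjusted p under 0.05 in edgeR, and DESeq2 and limma voom called 0. In row_RNAi1, 2 were called, both higher, where 21.2% of all genes were called and 11.2% were called higher. These were the receptor gene PGRP-LC (log2 0.60, edgeR adjusted p = 1.30e-04) and the transcription factor gene Rel (log2 0.44, edgeR adjusted p = 0.00111).

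**Figure D5:**
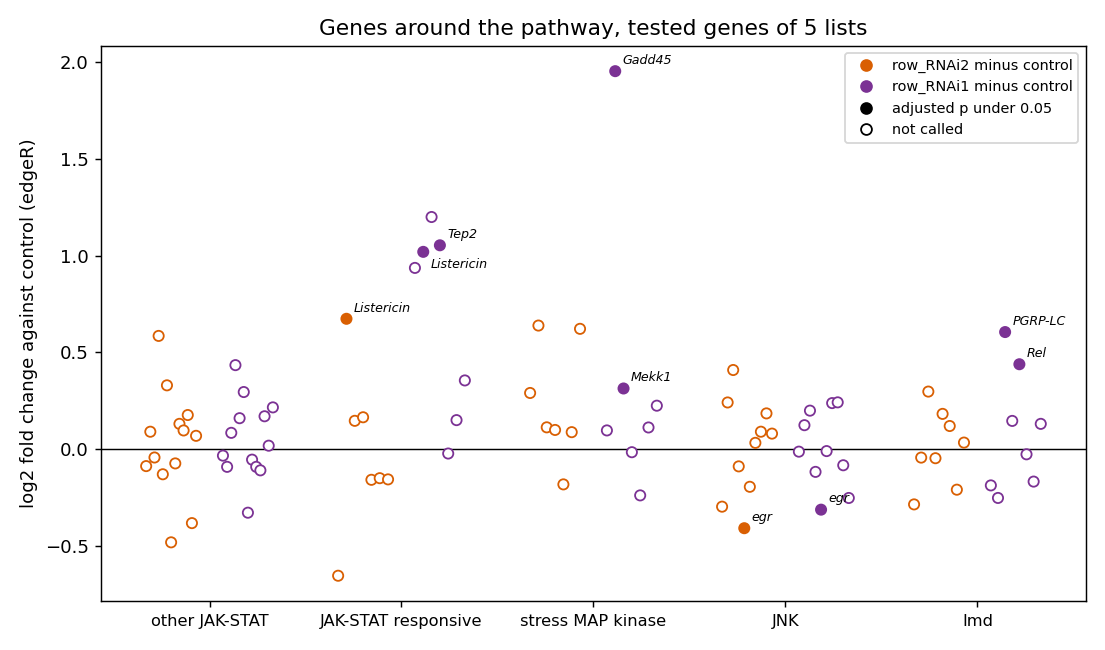
Log2 fold change against control (y axis) of each tested gene of 5 lists around the pathway, in row_RNAi2 and row_RNAi1. Filled points are called genes: no JAK-STAT regulator is filled, and Gadd45 in row_RNAi1 is the highest of the labelled genes, at 1.95.

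The summed levels of some cell type markers differed between the groups, and those of others overlapped. The summed level of 8 fat body markers was 7706 to 9632 CPM in row_RNAi2, 3992 and 5413 CPM in row_RNAi1 libraries, against 3172 to 4045 CPM in control. Of the 5 that were tested, 3 were called higher and 2 lower in row_RNAi2, and 2 higher and 2 lower in row_RNAi1, where 10.8% and 21.2% of all genes were called. Fbp1, Fbp2 and Npc2e were each at 0 in at least 3 of the 8 libraries. The storage protein gene Lsp2 had a log2 fold change of 2.23 in row_RNAi2 (edgeR adjusted p = 2.82e-06) and 0.05 in row_RNAi1 (edgeR adjusted p = 0.923). Rfabg, an apolipoprotein gene, rose in row_RNAi2 (log2 0.57, edgeR adjusted p = 3.13e-04) and in row_RNAi1 (log2 0.69, edgeR adjusted p = 5.46e-05). CG16713 rose in row_RNAi2 (log2 0.40) and in row_RNAi1 (log2 0.85), while Lsd-1, a lipid droplet protein gene, fell in row_RNAi2 (log2 -0.81) and in row_RNAi1 (log2 -1.17). The gene takeout (to) also fell in row_RNAi2 (log2 -0.55) and in row_RNAi1 (log2 -1.01). Without Lsp2, the most abundant marker in row_RNAi2 and a choice made after seeing the data, the other 7 summed to 3486, 3373 and 2748 CPM in row_RNAi2, 3846 and 3143 CPM in row_RNAi1 libraries, against 2276, 2404 and 2362 CPM in control. On that sum both lines lay above control and overlapped each other. Most of the sum was Rfabg alone, which averaged 2826 CPM in row_RNAi2, 3080 CPM in row_RNAi1 and 1903 CPM in control. The part of the markers in the Turandot values was not tested.

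The summed level of 9 hemocyte markers, genes of blood cells, was 260 to 284 CPM in row_RNAi2, 351 and 365 CPM in row_RNAi1 libraries, against 299.6 to 319 CPM in control. Of the 8 tested, 0 were higher and 2 lower in row_RNAi2, and 4 were higher and 0 lower in row_RNAi1. Over all genes, 10.8% were called in row_RNAi2 and 5.49% were called higher, and in row_RNAi1 21.2% were called and 11.2% were called higher. Among the hemocyte markers, Hml had log2 fold changes of -0.32 in row_RNAi2 (edgeR adjusted p = 0.00903) and 0.45 in row_RNAi1 (edgeR adjusted p = 5.08e-04). The 5 photoreceptor markers, which mark the head, summed to 22725 to 24881 CPM in row_RNAi2, 21819 and 22492 CPM in row_RNAi1 libraries, against 24408 to 24682 CPM in control. The 8 antenna markers summed to 15.4 to 17.4 CPM in row_RNAi2, 19.5 and 63.5 CPM in row_RNAi1 libraries, against 68.6, 30.5 and 89.0 CPM in control. The 4 neuron markers summed to 413 to 479 CPM in row_RNAi2, 409 and 409 CPM in row_RNAi1 libraries, against 452 to 473 CPM in control, and the 4 glia markers to 209 to 218, 184 and 197, and 189 to 210 CPM in the same order of groups. The 5 muscle markers summed to 2215 to 2446 CPM in row_RNAi2, 2534 and 2625 CPM in row_RNAi1 libraries, against 2121 to 2275 CPM in control, and 6 midgut markers to 41.6 to 50.7, 40.4 and 50.9, and 48.1 to 52.1 CPM in the same order. Among the markers tested, 0 of 4 neuron and 0 of 3 midgut markers were called in either line. Of 4 glia markers, 1 (loco) was called higher in each line. Of 7 antenna markers, 4 were called lower in row_RNAi2 and 3 in row_RNAi1. In row_RNAi1, 2 of 5 photoreceptor markers were called lower and 2 of 5 muscle markers higher, and in row_RNAi2 0 of either. Some of these calls were lost when 1 library was left out. The shares of all genes called were as given for the hemocyte markers. The part of these markers in the Turandot values was not tested either.

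By pattern over the 8 libraries, the genes most like TotA among 7437 searched were CG5599 (Pearson r 0.994), CG10960 (0.990) and Atg4a (0.989). For TotC they were Skeletor (0.968), TotM (0.963) and TotA (0.960), and for TotM CG30152 (0.977), Rcd5 (0.975) and CG6950 (0.974). For TotX they were CG31915 (0.970), eff (0.969) and CG43448 (0.941). With the list cut at 3 genes, other Turandot genes appeared for TotC only. TotA and TotM still correlated with TotC at 0.960 and 0.963, and with each other at 0.944. TotX correlated less with them, at 0.668 with TotA, 0.586 with TotC and 0.632 with TotM. For Stat92E the nearest genes were CG1774 (0.974), CG8539 (0.969) and capt (0.950). These correlations share the 3 groups and the 8 libraries and are a description only.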

How the data were processed

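Transcripts of fly heads were sequenced from the 3′ end in 8 libraries: 3 row_RNAi2, 2 row_RNAi1 and 3 control. The authors deposited 1 table of raw read counts for 13781 gene symbols. The submitters' processing notes name STAR and the build dm3. The sources used here do not give the counting program, annotation, strand use or any molecular identifiers. As strand use is not stated, overlapping genes on opposite strands may not be separated, and reads of close paralogs may be shared.

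The tests used edgeR 4.0.16 in R 4.3.3. TMM factors ran from 0.921 to 1.09. After filterByExpr, 9442 genes were tested in a 3-group model of all 8 libraries with quasi-likelihood F tests, and calls were made at a p under 0.05 after Benjamini-Hochberg adjustment over the tested genes. CPM are counts scaled to a common library total with TMM. Standard errors (SE) were derived from the F statistic, and 95% intervals from the SE. DESeq2 1.42.0, limma 3.58.1 voom, other scalings and filters, a replicate block, other groupings and leaving out each library served as alternatives, and counts thinned to the smallest library were added after seeing the data. The scripts were tested on simulated data. Gene order, overlap and lengths came from the Ensembl release 115 annotation of BDGP6. That build is later than dm3, so no coordinates are given.

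The genes described, the gene lists and the tests were chosen with earlier results of these data known. Of 51 other genes in 6 lists around the pathway, 48 were rows of the table, and of 51 cell type markers, 49. All 10 genes described, the called genes of the lists, the nearest neighbours and the 3 genes most like each called gene were named by rule.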

Additional observations from a re-analysis of the deposited data

Results flagged for a closer look

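The following were flagged because the response differed between the lines in a direct test of row_RNAi2 minus row_RNAi1 (edgeR quasi-likelihood, Benjamini-Hochberg adjusted). All 10 were lower in row_RNAi2. They are the called ones among the 8 tested genes described and the tested genes of the lists. Those lists held 13 JAK-STAT regulators, 7 genes reported to respond to JAK-STAT, 7 stress MAP kinase, 10 JNK and 8 Imd genes. Over all genes, 11.3% were called between the lines and 6.33% were called lower in row_RNAi2. The log2 difference was -1.14 for TotA, -1.33 for TotC, -1.67 for TotM and -1.01 for TotX, with edgeR adjusted p values of 6.61e-06, 4.98e-04, 2.23e-04 and 2.06e-05. Among genes reported elsewhere to respond to JAK-STAT it was -0.89 for Tep2 (edgeR adjusted p = 3.28e-07), -0.30 for vir-1 (0.00606), -0.35 for Listericin (0.0168) and -1.59 for Diedel (0.0242). It was -1.31 for Gadd45 (edgeR adjusted p = 4.45e-04) and -0.31 for PGRP-LC (0.0409).

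The calls of TotA, TotC, TotM, TotX, Tep2 and Gadd45 between the lines held under all 17 alternatives run. Diedel lost its call with DESeq2 (adjusted p = 0.365), the replicate block (0.0542), thinned counts (0.0538), and without row_RNAi1 replicate 2 (0.398) or row_RNAi2 replicate 2 (0.0995) or 3 (0.0864). The call of vir-1 was lost with total-count scaling (edgeR adjusted p = 0.0658) and without row_RNAi1 replicate 1 (0.0616) or 2 (0.0969). That of Listericin was lost with total-count scaling (edgeR adjusted p = 0.115) and without row_RNAi1 replicate 1 (0.195) or 2 (0.0928) or row_RNAi2 replicate 3 (0.0523). PGRP-LC lost its call under 10 alternatives, DESeq2 (adjusted p = 0.118) among them. In edgeR the adjusted p of the lost calls ran from 0.0615 (without control replicate 1) to 0.264 (total-count scaling). Without row_RNAi2 replicates 1, 2 and 3 the edgeR adjusted p values were 0.0787, 0.0843 and 0.0770. The call of PGRP-LC was also lost without either row_RNAi1 library.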

How the results depend on the processing

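Of 544 recomputed log2 values of the 8 tested genes, 495 kept their direction and their side of the threshold, 17 lost a call, 10 gained one and 22 changed sign. The largest size among those that changed sign was 0.13 (Stat92E in row_RNAi1 with total counts, -0.13). With DESeq2, 2 of the 8 genes were called in row_RNAi2 in place of 4, and leaving out 1 library gave 1 to 4. Over all genes, both lines as 1 group gave 839 calls against control in place of 1680. Leaving out 1 library gave 1299 to 2157 calls in row_RNAi1 (2001 with all), and 594 to 1109 between the lines (1068 with all), the lowest without row_RNAi1 replicate 1 in each case; without row_RNAi1 replicate 2 the count between the lines was 597. With both lines as 1 group, TotC had an adjusted p of 0.0580 (log2 1.39, edgeR).

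Sign changes were confined to hop, Socs36E, Stat92E and 1 ratio. For hop the log2 value was -0.036 for the mean of both lines with thinned counts, and in row_RNAi1 -0.043 with total counts and -0.080 with thinned counts. Between the lines hop had 0.0021 with DESeq2, 0.0031 with DESeq2 size factors, 0.10 with total counts, 0.0039 with genes of at least 5 CPM, 0.014 with the 2 groups alone and 0.088 with thinned counts, and -0.10 to 0.075 when 1 library was left out. In row_RNAi2 hop ran from -0.0089 to 0.17 when 1 library was left out. Socs36E between the lines had -0.028 with thinned counts and -0.050 to 0.18 with 1 library left out. Stat92E in row_RNAi1 had -0.0047 with the replicate block and -0.013 to 0.038 with 1 library left out. The log2 difference in the TotC to TotA ratio, knockdown minus control, ran from -0.18 to 0.0048 with 1 library left out. The cause was not tested.

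Scaling by total counts shifted the median of all genes by -0.14 in row_RNAi1 and 0.10 between the lines. The split of higher and lower calls became 640 and 1638 in row_RNAi1 (1055 and 946 with TMM), 581 and 1235 for the mean of both lines (872 and 808 with TMM), and 737 and 376 between the lines (470 and 598 with TMM). Same-numbered libraries correlated at -0.11 to 0.070 in their deviations from group means, and differently numbered ones at -0.11 to 0.084. With 2 or 3 libraries in a group these deviations are tied to each other. The correlations therefore cannot show whether same-numbered libraries were paired, and the labels state no pairing. With the replicate as a block, the counts called among the 8 genes were 4 in row_RNAi2, 4 in row_RNAi1, 3 for the mean and 4 between the lines, as without it, and over all genes they were 939, 1815, 1559 and 993. Depth limits TotB and upd3, and row_RNAi1 rests on 2 libraries.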
